A study of Mus musculus with 4 samples.

Results

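Mecom, Hlf, Prdm16, Meis1, Hmga2, Nkx2-3 and Mycn are 7 genes for transcription and chromatin factors of hematopoietic stem cells (HSCs), taken from the 32272 gene rows of a single-nucleus multiome matrix. For each gene, the UMIs of its own row and the counts of chromatin accessibility (ATAC) peaks near its start were summed per cell class. These were the peaks within 50 kb of the start interval that the matrix gives for the gene, 136 of 174339 peaks. That interval does not always span every annotated start. The nuclei came from lineage-negative, cKit-positive hematopoietic stem and progenitor cells (HSPCs) sorted from mouse bone marrow. One group was an untreated control (Ctrl) and the other carried a silk ligature (Lig) as a model of periodontitis, sampled at 14 d, with the marrow of several C57BL/6 mice pooled into 1 sample per group. The matrix holds both samples as barcode suffixes 1 and 2, and no label ties a suffix to Ctrl or Lig. The suffixes are therefore called library 1 and library 2, and no comparison between Ctrl and Lig was made.

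In the bone marrow, a small pool of HSCs renews itself and feeds every blood lineage, and its identity is held by transcription factors that are lost as progenitors commit. Mecom encodes the zinc finger factor EVI1 and a longer PR domain form, and Prdm16 encodes its close relative. Hlf encodes a PAR bZIP factor, Meis1 a TALE homeodomain factor that binds DNA with HOX proteins, and Nkx2-3 an NK2 homeodomain factor. Hmga2 encodes an architectural chromatin protein of fetal and self-renewing stem cells, and Mycn a MYC family factor of proliferating cells.

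After filters on genes and peak counts per barcode, 5905 nuclei of library 1 and 7714 of library 2 were kept, with a median of 1641 and 1516.5 UMIs and of 19471 and 16284 ATAC counts. Among kept nuclei, 72 barcode sequences occurred in both libraries. Genes at the ribosomal RNA locus took 38.6% of the UMIs of HSC-like nuclei in library 1 and 52.4% in library 2. Nuclei were clustered on RNA and ATAC with the 7 genes and their 136 peaks left out, so the classes below do not rest on them. Of 19 clusters, 13 were named from marker genes and 6 kept a number.

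The HSC-like class held 405 nuclei of library 1 (6.86%) and 528 of library 2 (6.84%). It was named from Myct1, Angpt1, Mllt3, Esam, Gcnt2, Tek and Tie1, the 7 of its 17 markers that were raised, none of them among the 7 genes described here. Angpt1, Tek and Tie1 belong to a ligand and receptor system of the stem cell niche and endothelium. The class was led by Samd12, Crispld1 and Cyp7b1, and the other 10 markers, including Procr, Slamf1 and Fgd5, did not pass the marker rule. MkP-like (megakaryocyte progenitor) nuclei, MPP4-like (lymphoid-primed multipotent progenitor) nuclei and cluster 4 recur in the levels that follow. Cluster 4, unnamed, was led by Mdga1, Slco3a1 and Slc24a3.

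RNA levels are CPM, UMIs of the gene scaled to the UMI total of the class, with exact 95% Poisson intervals that cover counting error only. There was 1 pooled sample per group, so nuclei are not replicates and no test was made. A gene counted as higher in HSC-like nuclei when its CPM was 2-fold or more that of all other nuclei in both libraries, among genes with 20 UMIs in each library. Of the 7 genes, 6 had enough UMIs and all 6 passed this limit, against 4.71% of the 10614 genes measured in the same way. The 7 genes were chosen as stem cell factors with earlier results of these data known. This count, and that of their peaks below, therefore only describes the chosen genes. Ranked by the lower of their 2 ratios, Nkx2-3 stood first and Mecom second among the 10614 genes measured. Hlf, Meis1 and Prdm16 stood at 18, 19 and 20, and Hmga2 stood at 140. Nkx2-3 had 11 UMIs outside HSC-like nuclei in library 1, so it reached the minimum there only through the class in which it is high, and its rank and its place in the count rest on that.

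Mecom RNA was concentrated in HSC-like nuclei. They held 346 UMIs in library 1, a level of 523 CPM (469 to 581), and 169 UMIs in library 2, a level of 225 CPM (193 to 262). All other nuclei had 19.8 and 14.2 CPM, which gave ratios of 26.4 (22.0 to 31.6) and 15.9 (12.8 to 19.8). Clustering without correction between libraries, which put 621 and 701 nuclei in the HSC-like class, gave 14.2 and 9.50, and a minimum of 500 genes per nucleus gave 10.03 in library 2. MkP-like nuclei came next, at 131 and 44.1 CPM, followed by cluster 4 at 72.2 and 31.9 CPM and MPP4-like nuclei at 50.1 and 32.5 CPM. The HSC-like interval lay above that of MkP-like nuclei in both libraries, while each class from MkP-like to MPP4-like overlapped the one ranked after it. Pro-B-like nuclei were close to empty, with 2.67 CPM in library 1 and 4.81 CPM in library 2.

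Prdm16, which like EVI1 carries zinc fingers and binds CtBP corepressors, was sparser, and HSC-like nuclei were again highest in both libraries. HSC-like nuclei had 50 and 26 UMIs, levels of 75.6 CPM (56.1 to 99.6) and 34.6 CPM (22.6 to 50.8). Other nuclei had 5.81 and 5.34 CPM, so the ratios were 12.997 (8.70 to 19.4) and 6.48 (3.94 to 10.4), or 7.88 and 3.73 without correction between libraries. MkP-like nuclei ranked second with 3 UMIs in each library, and their interval stayed below the HSC-like one in library 1 only.

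Hlf, the PAR bZIP factor of resting long-term stem cells, had its highest level in HSC-like nuclei in both libraries. The level was 351 CPM (307 to 399) in library 1 and 62.6 CPM (46.02 to 83.3) in library 2, from 232 and 47 UMIs. Elsewhere it was 14.5 and 9.25 CPM, and the ratios were 24.1 (19.5 to 29.97) and 6.77 (4.71 to 9.62). Cluster 4, second by the mean of both libraries, had 36.1 and 19.7 CPM. MPP4-like nuclei, at 45.8 and 8.86 CPM, were second in library 1, and the unnamed cluster 8, at 21.4 and 28.6 CPM, was second in library 2. MkP-like nuclei, second for Mecom, had 16.9 and 22.1 CPM of Hlf. In library 2 the HSC-like interval overlapped those of 4 classes with 1 to 6 Hlf UMIs, namely MkP-like, pro-NK/T-like and pDCP-like nuclei and cluster 11. The ratio was 11.5 in library 1 without correction between libraries, and 10.3 in library 2 with the 7 genes and their peaks kept in the clustering.

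Meis1 was shared between stem and megakaryocyte nuclei. MkP-like nuclei had 904 CPM (787 to 1033) and 268 CPM (210 to 337), and HSC-like nuclei 784 CPM (718 to 855) and 276 CPM (240 to 316), so the order of these classes was not resolved in either library. Both lay above MPP4-like nuclei, at 276 and 114 CPM, BaP-like (basophil progenitor) nuclei, at 224 and 74.7 CPM, and EryP-like (erythroid progenitor) nuclei, at 175 and 109 CPM. Against all other nuclei, which had 109 and 42.3 CPM, HSC-like nuclei were 7.17-fold (6.44 to 7.97) and 6.52-fold (5.51 to 7.68) higher. By the mean of both libraries, Meis1 was lowest of the 19 classes in NeuP-like (neutrophil progenitor) nuclei, with 14.5 and 11.5 CPM from 3 and 5 UMIs.

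Hmga2 was the one gene of the set whose highest mean level lay in MPP4-like nuclei. MPP4-like nuclei had 239 CPM (204 to 278) and 66.5 CPM (48.5 to 88.9), and HSC-like nuclei 131 CPM (105 to 162) and 61.3 CPM (44.9 to 81.8). The classes were apart in library 1 and overlapped in library 2. Cluster 4 followed at 110 and 34.8 CPM. MkP-like nuclei, rich in Meis1, had 38.0 and 3.68 CPM of Hmga2, from 9 UMIs and 1 UMI. The HSC-like ratio to all other nuclei was 3.08 (2.42 to 3.89) and 4.66 (3.28 to 6.52).

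Nkx2-3 was rare in every class. HSC-like nuclei held 32 UMIs in library 1 and 27 in library 2, against 11 and 23 in all other nuclei together, at 48.4 CPM (33.1 to 68.3) and 36.0 CPM (23.7 to 52.4). Other nuclei had 1.14 and 1.95 CPM, and the ratios were 42.3 (20.8 to 93.1) and 18.4 (10.2 to 33.7), or 18.9 and 7.13 without correction between libraries. The next class, MPP4-like, had 4 and 11 UMIs (5.72 and 16.2 CPM), apart from the HSC-like interval in library 1 only. MkP-like nuclei had none in library 1, where the limit of 3 UMIs set for a count of 0 is 12.7 CPM and the exact interval reaches 15.6 CPM, and 2 UMIs in library 2.

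Mycn had few UMIs in every class, and no class could be singled out for it. HSC-like nuclei had 2 and 3 UMIs, or 3.02 CPM (0.366 to 10.9) and 3.998 CPM (0.824 to 11.7), and all other nuclei 22 and 10 UMIs. The ratios of 1.32 (0.151 to 5.38) and 4.71 (0.833 to 18.3) had intervals that include 1, and the second ranged from 1.82 to 10.03 over the alternatives, so a difference was not detectable at this depth.

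**Figure D1:**
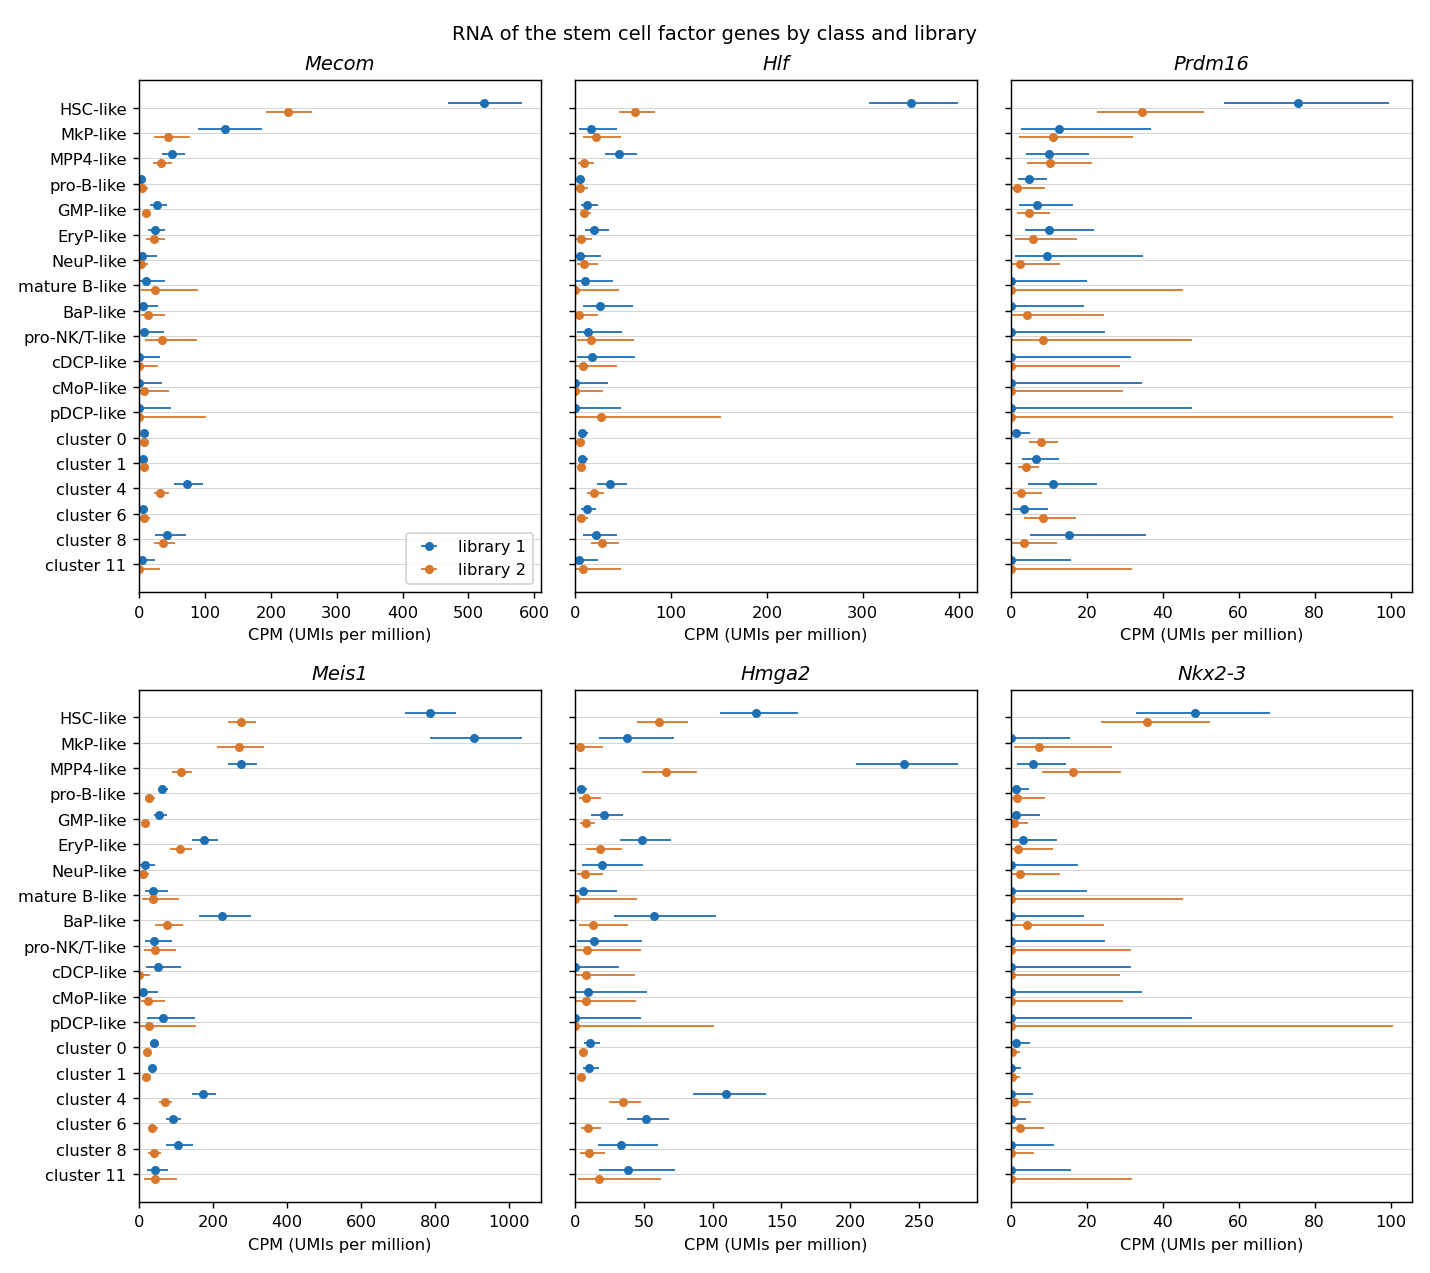
RNA of 6 of the genes by class (vertical axis) in CPM (horizontal axis, linear, its own scale per panel), with points for library 1 (blue) and library 2 (orange) and bars for exact 95% Poisson intervals. HSC-like nuclei lead for Mecom, Hlf, Prdm16 and Nkx2-3, share the top with MkP-like nuclei for Meis1 (784 and 904 CPM in library 1) and lie below MPP4-like nuclei for Hmga2 in library 1 (131 and 239 CPM).

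The share of nuclei with a UMI gave the same picture, within the limits of shallow nuclei. In library 1, 64.4% of HSC-like nuclei had a Meis1 UMI, 44.9% a Mecom UMI, 34.8% an Hlf UMI, 17.8% an Hmga2 UMI, 11.1% a Prdm16 UMI and 7.90% an Nkx2-3 UMI. In library 2 the shares were 31.8%, 24.6%, 7.77%, 7.95%, 4.73% and 4.73%. With each nucleus thinned to 1000 UMIs, which left 346 and 417 HSC-like nuclei, Mecom was found in 32.4% and 19.2% and Hlf in 26.9% and 5.28%. The 1000 UMIs include those at the ribosomal RNA locus, whose share differed between the libraries. Pro-B-like nuclei, which should lack these genes and had medians of 1815 and 1458 UMIs against 1505 and 1334.5 in HSC-like nuclei, gave 0.143% and 0.597% for Mecom and 0.430% and 0.299% for Hlf at the same 1000 UMIs. Meis1 was found in 53.2% and 24.0% of thinned HSC-like nuclei and still in 6.02% and 3.58% of pro-B-like nuclei.

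HSC-like nuclei with UMIs of several of the genes were more frequent in library 1 than in library 2. Of the 405 HSC-like nuclei of library 1, 14.6% had none of the 7, 29.9% had 1, 24.7% had 2, 22.2% had 3, 7.65% had 4 and 0.988% had 5. Of the 528 in library 2, 42.8% had none, 36.7% had 1, 16.1% had 2, 4.17% had 3 and 0.189% had 4. In library 1, HSC-like nuclei with none had a median of 1188 UMIs, those with 4 a median of 1764 and those with 5 a median of 1500. In library 2, those with none had 1177.5, and those with 1, 2 and 3 had 1408, 1415 and 1400. Nuclei with none were thus shallower in both libraries, while depth did not rise steadily with the count. Mecom and Hlf were found together in 87 of 405 HSC-like nuclei of library 1, where the product of their shares gives 63.4, and in 15 of 528 of library 2, where it gives 10.1. For Mecom and Prdm16 the counts were 31 against 20.2 and 7 against 6.16, and for Meis1 and Nkx2-3 they were 18 against 20.6 and 6 against 7.95. Depth, which raises every such count, was not removed from these numbers. It also differed between the libraries, with medians of 1505 and 1334.5 UMIs in HSC-like nuclei of libraries 1 and 2. Of their UMIs, 38.6% and 52.4% lay at the ribosomal RNA locus. The part of this in the difference between libraries was not tested.

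Accessibility followed RNA with a smaller range. Summed over its peaks, the Mecom locus had 223 CPM, here ATAC counts scaled to the ATAC total of the class, in HSC-like nuclei of library 1 and 201 in library 2, against 109 and 121 in other nuclei, ratios of 2.04 (1.90 to 2.20) and 1.66 (1.54 to 1.79). For ATAC the intervals took 2 counts as 1 observation, since both ends of a fragment tend to be counted. The Prdm16 locus had ratios of 1.64 (1.39 to 1.92) and 1.88 (1.63 to 2.16), and the Hlf locus 1.56 (1.41 to 1.72) and 1.56 (1.41 to 1.71). The Nkx2-3 locus had 1.55 and 1.49, the Meis1 locus 1.52 and 1.39 and the Mycn locus 1.43 and 1.74, all with intervals above 1. The Hmga2 locus stood apart, at 1.07 (0.933 to 1.23) and 1.09 (0.953 to 1.24), intervals that include 1.

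By the mean of both libraries, the HSC-like class ranked first for the loci of Mecom, Hlf, Prdm16 and Nkx2-3, but its interval lay above the next class in 1 library for Mecom and in neither library for the others. MkP-like nuclei were next for each of these loci, with 170 and 190 CPM at Mecom and 117 and 133 at Hlf. They were first for Meis1 (112 and 127) and for Mycn (82.3 and 66.5), where HSC-like nuclei had 119 and 112, and 70.3 and 76.5. By the same mean, the Hmga2 locus was highest in cluster 4, at 77.4 and 73.2, and Hmga2 RNA in MPP4-like nuclei. Over the 19 classes, Pearson's correlation of RNA with locus accessibility, both on a log2 scale, ranged from 0.45 (Prdm16) to 0.77 (Meis1) in library 1 and from 0.47 (Mecom) to 0.74 (Nkx2-3) in library 2 for the 6 genes other than Mycn, as a description of points that share libraries and depth. For Mycn, which had few UMIs in every class, the correlation was 0.68 in library 1 and 0.065 in library 2.

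**Figure D2:**
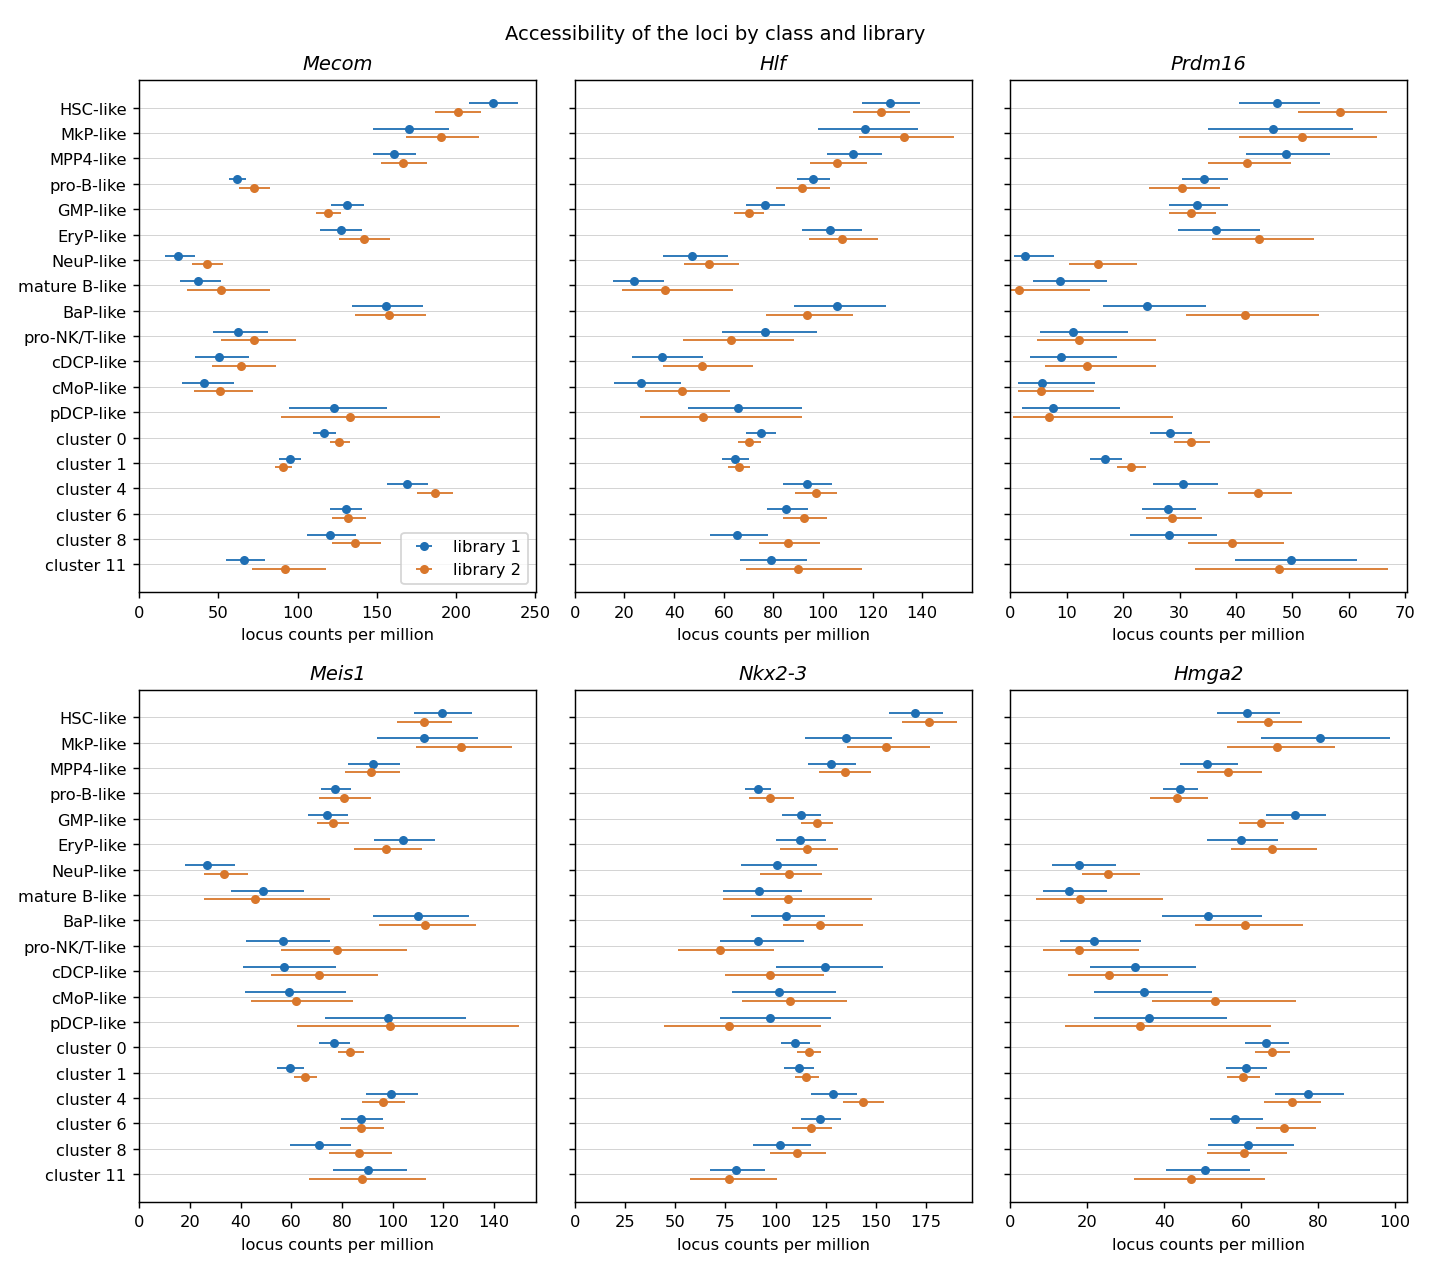
ATAC CPM summed over the peaks within 50 kb of each start interval (horizontal axis, linear, its own scale per panel) by class (vertical axis), with points for library 1 (blue) and library 2 (orange) and bars for exact 95% Poisson intervals on pairs of counts. HSC-like and MkP-like nuclei hold the first 2 ranks by mean in the Mecom, Hlf, Prdm16, Meis1 and Nkx2-3 panels, although cluster 11 (49.8 CPM) and MPP4-like nuclei (48.8 CPM) lie above them at Prdm16 in library 1 and BaP-like nuclei (113 CPM) above HSC-like nuclei at Meis1 in library 2, and the Hmga2 panel has no HSC-like maximum (61.6 and 66.98 CPM).

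Single peaks differed more than whole loci. Of the 136 peaks, 28 were 2-fold or more higher in HSC-like nuclei in both libraries, against 3.53% of the 174258 peaks measured in the same way. They comprised 13 of 46 peaks at Mecom, 4 of 24 at Nkx2-3, 3 of 9 at Prdm16, 3 of 20 at Hmga2, 2 of 13 at Meis1, 2 of 8 at Mycn and 1 of 16 at Hlf. The count was 14 with at least 500 genes per nucleus and 16 of 71 peaks within 10 kb. By position, 16 lay in an intron, 9 over an exon and 3 between genes. Start peaks are those that overlap the 1 kb on each side of an annotated start of the gene. Only 2 of these 15 peaks at an own start were among the 28. By the mean of both libraries, the HSC-like class was highest of all 19 classes in 28 of the 136 peaks (20.6%), against 3.82% of all peaks. By the same mean, of the 28 peaks that passed the 2-fold limit, 15 were highest in HSC-like, 6 in MkP-like and 5 in MPP4-like nuclei. The lower of the 2 library ratios had a median of 1.37 over the 136 peaks and of 0.736 over all peaks.

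**Figure D3:**
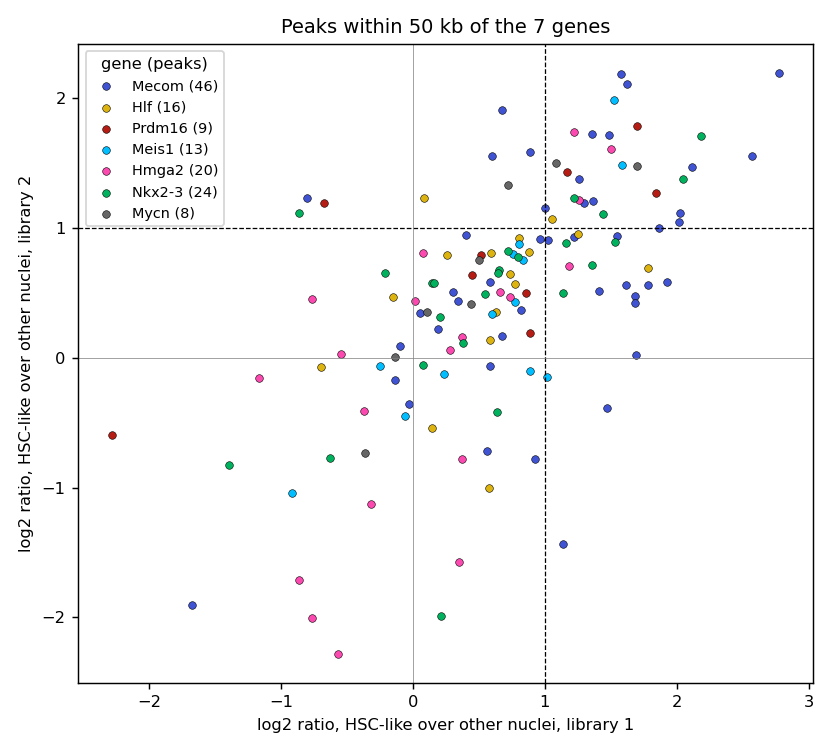
The log2 ratio of HSC-like over other nuclei for each of the 136 peaks in library 1 (horizontal axis) and library 2 (vertical axis), colored by gene, with dashed lines at a ratio of 2. The 28 peaks in the upper right corner include 13 of Mecom, and 1 Mecom peak has a ratio below 0.5, a log2 ratio below -1, in both libraries.

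The Mecom gene spans chr3:29951296-30548008 on the minus strand (GRCm38), and the start interval the matrix gives for it is 512032 bp long, so its window was far wider than those of the other genes. Peaks with 20 or more counts in HSC-like nuclei of each library were ranked by the lower of both ratios. Among them, the largest ratio of the set belonged to an intronic peak 32.5 kb downstream of the long-form start, chr3:30476765-30477642. It had 85 and 64 counts in HSC-like nuclei, or 11.6 and 8.59 CPM, and ratios of 6.86 (4.66 to 9.96) and 4.57 in libraries 1 and 2. MkP-like nuclei had 9.05 and 6.33 CPM there and MPP4-like nuclei 7.88 and 7.59, while pro-B-like nuclei had 0.417 and 0.643. A peak within 1 kb of the long-form start was open more widely. This peak, chr3:30508145-30509015, lies in an intron and had 41.9 and 46.3 CPM in HSC-like nuclei. Its ratios were only 1.499 and 1.49, with 7.97 and 14.7 CPM in NeuP-like nuclei. At the inner start, from which EVI1 is transcribed, the peak chr3:30012804-30013571 had ratios of 2.65 and 1.43 and levels of 8.62 and 9.50 CPM in MkP-like nuclei against 9.17 and 5.50 in HSC-like nuclei, so that MkP-like nuclei were higher in library 2 only. The start of Mecomos also lies within 1 kb of this peak, and which gene it belongs to cannot be told apart. The other 2 Mecom start peaks had ratios with intervals that include 1. At chr3:30012053-30012679 they were 1.27 (0.566 to 2.50) and 1.36 (0.726 to 2.34). At chr3:30239112-30240027 they were 1.32 (0.345 to 3.61) and 1.93 (0.549 to 5.11), from 8 and 9 counts in HSC-like nuclei. EryP-like nuclei had 9.75 and 8.73 CPM at this last peak, against 1.09 and 1.21 in HSC-like nuclei.

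One Mecom peak went the opposite way. The intronic peak chr3:30414001-30414841, 95.3 kb downstream of the long-form start, had ratios of 0.313 and 0.267 in HSC-like nuclei and was highest in pDCP-like (plasmacytoid dendritic cell progenitor) nuclei, at a mean of 23.7 CPM against 1.70 in HSC-like nuclei. It was the 1 peak of the 136 that was 2-fold or more lower in both libraries, while 13.9% of all peaks were.

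**Figure D4:**
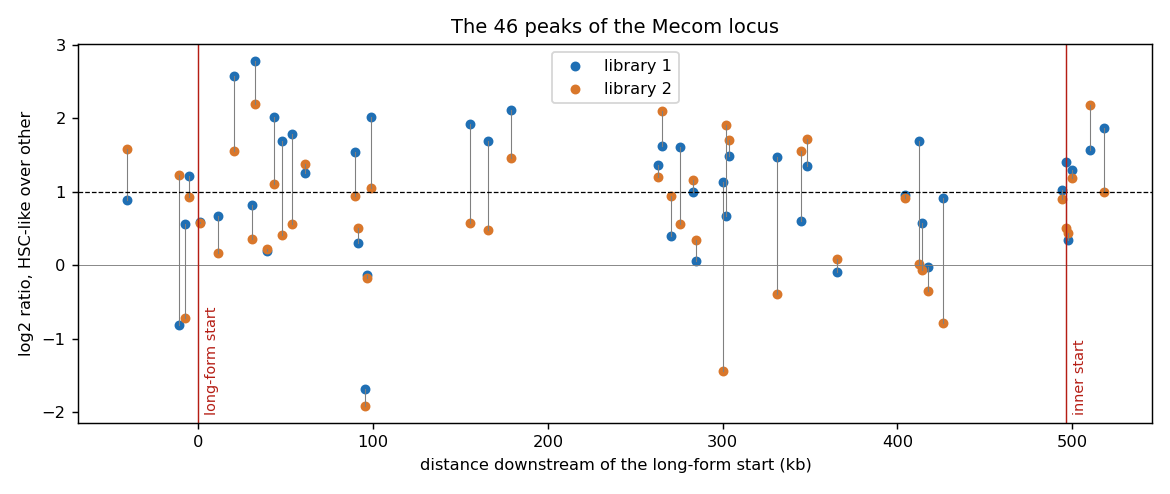
The log2 ratio of HSC-like over other nuclei (vertical axis) for the 46 Mecom peaks by distance from the long-form start in kb (horizontal axis), with library 1 in blue and library 2 in orange joined by a grey line. Peaks above the dashed line at a ratio of 2 occur from 20.6 kb downstream of the long-form start to beyond the inner start, and the low pair of points lies at 95.3 kb.

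At Nkx2-3, in contrast, the peak over the start site was itself among the 4 of 24 peaks past the 2-fold limit. This start peak, chr19:43612123-43612659, had 12.7 and 11.9 CPM in HSC-like nuclei and 2.79 and 3.66 in other nuclei. Its ratios were 4.55 (3.21 to 6.35) and 3.26 for libraries 1 and 2. MkP-like nuclei had 8.62 and 9.50 CPM and MPP4-like nuclei 4.44 and 7.91, so the peak was also open in MkP-like nuclei, which had 0 and 2 Nkx2-3 UMIs. A peak 1.67 kb upstream, chr19:43610211-43611097, at the start of Gm20467, had ratios of 2.33 and 2.34, and a peak farther upstream, chr19:43565748-43566638, over exons of AC138790.2 and AC138790.3, had 4.13 and 2.60. The Prdm16 start peak, chr4:154636359-154636989, was the other start past the limit, with 11.5 and 15.3 CPM and ratios of 2.24 and 2.70. The start of Gm13111 lies within 1 kb of it as well. MkP-like nuclei had 13.8 and 7.04 CPM at this start peak, above HSC-like nuclei in library 1 only. The other Prdm16 start peak, chr4:154635370-154636213, had ratios of 1.43 and 1.73. The Prdm16 peak with the largest lower ratio was intronic, 18.9 kb downstream, chr4:154617588-154618391, with 3.24 and 3.45. MkP-like nuclei had 5.17 and 2.11 CPM there and MPP4-like nuclei 3.01 and 4.27, against 4.24 and 4.83 in HSC-like nuclei.

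The starts of Hlf and Meis1 were open in most classes. The Hlf start peak, chr11:90390482-90391370, had 28.6 and 34.0 CPM in HSC-like nuclei and ratios of 1.51 and 1.74, and NeuP-like nuclei, with 1 and 4 Hlf UMIs, still had 23.9 and 18.3. The other 3 Hlf start peaks went different ways, with ratios of 0.618 and 0.954 at chr11:90387478-90388133, 3.44 and 1.61 at chr11:90382098-90382883 and 1.5002 and 1.10 at chr11:90380847-90381705. Hlf peaks with 20 or more counts in HSC-like nuclei of each library were also ranked by the lower ratio. The largest ratios were 2.08 and 2.10 in an intron 10.7 kb downstream, chr11:90379790-90380539, and 2.38 and 1.93 in an intergenic peak 29.0 kb upstream, chr11:90419518-90420351. Both peaks were highest in HSC-like nuclei by the mean of both libraries. At the intronic peak HSC-like nuclei had 3.97 and 4.30 CPM, GMP-like (granulocyte-monocyte progenitor) nuclei 3.89 and 3.28 and MPP4-like nuclei 3.87 and 3.01. BaP-like nuclei had 4.44 CPM there in library 1, above HSC-like nuclei in that library only. At the intergenic peak HSC-like nuclei had 12.9 and 10.6 CPM. MPP4-like nuclei had 10.9 and 10.8 there, higher in library 2 only. In pDCP-like nuclei the peak had 14.3 and 4.50 CPM, from 15 and 2 counts, higher in library 1 only. The Meis1 start peak, chr11:19018522-19019376, had ratios of 1.52 and 1.27, and an intronic peak 35.0 kb downstream, chr11:18983512-18984418, had 3.01 and 2.80, from 21 counts in HSC-like nuclei of each library. That peak was as open in pro-B-like nuclei, at 2.86 and 3.06 CPM against 2.87 and 2.82 in HSC-like nuclei.

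The Hmga2 start peak, chr10:120476691-120477554, had ratios of 1.22 and 1.04. It had 14.5 and 14.9 CPM in MPP4-like nuclei and 14.7 and 7.74 in MkP-like nuclei. An intronic peak 13.1 kb downstream, chr10:120463005-120463806, had ratios of 2.83 and 3.05. It was highest in HSC-like nuclei, at 3.83 and 4.03 CPM, with MkP-like nuclei close at 3.45 and 3.87. An intergenic peak upstream, chr10:120524821-120525697, had ratios of 2.33 and 3.34. MPP4-like nuclei had 6.59 and 7.91 CPM there, above HSC-like nuclei at 4.51 and 6.17. Another intronic peak, chr10:120432608-120433452, was highest in MkP-like nuclei at 13.4 and 14.1 CPM, against 4.79 and 3.76 in HSC-like nuclei, and MkP-like nuclei had 9 UMIs and 1 UMI of Hmga2 in libraries 1 and 2. The Mycn start peak, chr12:12941596-12942101, had 20.9 and 24.7 CPM in HSC-like nuclei and ratios of 1.65 and 2.51. MkP-like nuclei had 38.4 and 24.3 CPM there, above HSC-like nuclei in library 1 only. The other Mycn start peak, chr12:12942215-12942888, had ratios of 1.42 and 1.68. The 2 Mycn peaks past the limit in both libraries lay within the neighboring gene 4930519A11Rik.

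Sequences of 5 regions follow. In the Mecom label, the set is that of peaks with 20 or more counts in HSC-like nuclei of each library. The Mecom, Prdm16 and Nkx2-3 regions are shown for their large differences, and the Hlf and Meis1 regions for a motif match, although other peaks of these 2 genes had larger lower ratios. Each is the central 300 bases of a peak that overlaps no exon, or the 250 bases before a RefSeq start, on GRCm38, on the plus strand unless stated otherwise. Capitals mark exact matches to the motifs TTACGTAA and TTATGTAA for HLF and other PAR bZIP factors, GACAAGATA and AAGATAA for EVI1, TTGACAG for MEIS1, CCACTTAA for NKX2-3, CACGTG for MYCN, AGATAAG for GATA factors, CCGGAAGT for ETS factors and TGTGGTTT for RUNX factors, on either strand. The motif AAGATAA can overlap that of GATA factors and the longer one of EVI1. A match is a description of letters and not a binding site.
Mecom intron, 32.5 kb downstream, chr3:30477054-30477353, the largest ratio of the set: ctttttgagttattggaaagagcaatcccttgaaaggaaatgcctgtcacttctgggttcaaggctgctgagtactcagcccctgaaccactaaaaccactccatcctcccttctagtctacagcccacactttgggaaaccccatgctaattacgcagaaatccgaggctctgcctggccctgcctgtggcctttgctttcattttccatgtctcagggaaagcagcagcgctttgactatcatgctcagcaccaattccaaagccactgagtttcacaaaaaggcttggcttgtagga
Hlf, 29.0 kb upstream, chr11:90419785-90420084, with TTGACAG: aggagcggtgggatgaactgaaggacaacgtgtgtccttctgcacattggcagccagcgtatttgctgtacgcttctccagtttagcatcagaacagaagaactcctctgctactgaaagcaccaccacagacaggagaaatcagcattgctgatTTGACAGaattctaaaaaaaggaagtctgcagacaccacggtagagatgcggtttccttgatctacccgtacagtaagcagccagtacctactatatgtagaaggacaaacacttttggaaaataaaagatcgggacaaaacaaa
Prdm16 intron, 18.9 kb downstream, chr4:154617840-154618139: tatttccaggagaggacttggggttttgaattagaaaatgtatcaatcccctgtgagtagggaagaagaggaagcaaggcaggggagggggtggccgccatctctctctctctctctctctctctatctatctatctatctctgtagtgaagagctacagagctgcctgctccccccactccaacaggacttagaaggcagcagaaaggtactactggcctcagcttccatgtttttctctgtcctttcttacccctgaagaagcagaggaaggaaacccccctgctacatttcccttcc
Nkx2-3 promoter, chr19:43612075-43612324, the start with the largest ratio: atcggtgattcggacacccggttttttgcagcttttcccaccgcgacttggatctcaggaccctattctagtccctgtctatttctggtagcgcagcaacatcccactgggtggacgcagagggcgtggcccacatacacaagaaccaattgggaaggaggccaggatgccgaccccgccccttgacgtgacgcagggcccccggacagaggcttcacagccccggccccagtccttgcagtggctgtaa
Meis1 promoter, minus strand, chr11:19018970-19019219, with CCGGAAGT on the opposite strand: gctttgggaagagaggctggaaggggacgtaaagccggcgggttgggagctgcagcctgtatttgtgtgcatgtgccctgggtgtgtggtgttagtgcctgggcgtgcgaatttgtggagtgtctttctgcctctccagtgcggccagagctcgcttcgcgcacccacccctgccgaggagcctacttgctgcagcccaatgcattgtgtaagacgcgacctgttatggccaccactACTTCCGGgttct
The central windows of the Mecom and Prdm16 peaks shown, and of the intronic Hmga2 peak chr10:120463005-120463806, held none of the motifs. The Nkx2-3 promoter bases above also held none. The central window of the Nkx2-3 start peak, chr19:43612123-43612659, not shown because that peak overlaps an exon, held TTGACAG and CCACTTAA. TTGACAG occurred in 6 of the 136 windows (4.41%) against 4.09% of all windows of the same length, and CACGTG in 10 (7.35%) against 5.52%. TGTGGTTT occurred in 7 (5.15%) against 4.78%, and CCACTTAA in 2 (1.47%) against 0.708%. Lower shares were found for AAGATAA, in 2 (1.47%) against 4.09%, AGATAAG, in 4 (2.94%) against 4.06%, and CCGGAAGT, in 1 (0.735%) against 1.12%. Neither PAR bZIP motif and no GACAAGATA was found in them, with 1.21%, 0.133% and 0.139% of all windows holding TTATGTAA, TTACGTAA and GACAAGATA. Among the 250-base promoter windows of RefSeq, 2.88% held CCGGAAGT.

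Over the whole genome, peaks with the motifs of these factors were compared by their share of ATAC counts, leaving out peaks within 1 kb of a start. The MEIS1 motif TTGACAG, in 5996 of 139675 distal peaks, had HSC-like over other ratios of 1.004 and 1.002. The PAR bZIP palindrome TTACGTAA had ratios of 0.854 and 0.788 and was highest by the mean of both libraries in NeuP-like nuclei. Which factors bind peaks with this motif was not tested. GACAAGATA had 0.824 and 0.826, and HSC-like nuclei ranked 19 of 19 by that mean, with mature B-like nuclei lower in library 2. These 2 motifs rest on only 187 and 221 distal peaks, and no intervals were computed for the motif ratios. The second motifs of these factors were closer to 1, at 0.981 and 0.948 for TTATGTAA and 1.03 and 1.03 for AAGATAA. CCACTTAA had 1.01 and 1.02, CACGTG 1.01 and 1.01, and the ETS motif CCGGAAGT 1.01 and 1.04. The GATA motif AGATAAG had 1.18 and 1.17, and the RUNX motif TGTGGTTT 1.07 and 1.08. Median GC content was 45.0% in distal windows with the palindrome and 48.0% in all distal windows, and its part in these ratios was not tested.

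Of 42 related genes of the stem cell program, listed with earlier results of these data known, 35 had enough UMIs. Of these, 7 passed the 2-fold limit in both libraries, among them Hoxa5, Hoxa9, Msi2, Zfp521, Lmo2 and Tal1, against 4.71% of all genes measured. Hmga1 and Arid3a, 2 of the 35, were 2-fold or more lower, against 3.14% of all genes measured. The lower of the 2 log2 ratios had a median of 0.46 over the 35 genes and of -0.09 over all genes measured. The 3 largest were Hoxa5, with ratios of 5.05 and 5.83, Hoxa9, with 5.89 and 4.42, and Msi2, for an RNA-binding protein, with 4.16 and 4.18. The 3 smallest were Igf2bp3, with 0 UMIs and 1 UMI in HSC-like nuclei, Nfil3, for a repressor that competes for PAR bZIP sites, at 0.135 (0.00338 to 0.767) and 0.661 (0.177 to 1.75), and Arid3a, at 0.442 and 0.376. Chosen as a relative of a member after its values were seen, Hmga1, the paralog of Hmga2, had 0.470 and 0.445.

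The genes whose profile over the 19 classes was most like that of a member were sought among 6397 genes with 100 UMIs in each library, by Pearson correlation of log2(CPM + 1), as a description of points that share libraries and depth. For Mecom they included Pard3b (0.86) and Adcy9 (0.84). For Hlf they were Uba7 (0.81), Slco3a1 (0.80) and Adgrl4 (0.80), for Meis1 Angpt1 (0.93), Tet1 (0.86) and Rsl1d1 (0.84), and for Hmga2 Afap1l1 (0.90), Gm26542 (0.85) and Cd34 (0.85). Among the members themselves, the correlation was 0.77 and 0.72 for Mecom and Meis1 in libraries 1 and 2. It was 0.81 and 0.24 for Mecom and Hlf, and 0.56 and 0.34 for Meis1 and Hmga2.

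Between the libraries, RNA of the genes in HSC-like nuclei differed more than their accessibility. The ratio of library 2 over library 1 was 0.431 (0.356 to 0.519) for Mecom, 0.179 (0.128 to 0.245) for Hlf, 0.459 (0.274 to 0.751) for Prdm16, 0.352 (0.298 to 0.414) for Meis1, 0.466 (0.319 to 0.674) for Hmga2 and 0.744 (0.429 to 1.28) for Nkx2-3. Thus 5 of the 6 genes were 2-fold or more lower in library 2, against 25.6% of the 3625 genes with 40 UMIs over both libraries. The median ratio was 0.639 over the 3017 genes with 20 UMIs in each library. With the genes of the ribosomal RNA locus left out of the totals, the median over the same 3017 genes was 0.825, and 2 of the 6 genes, Hlf (0.231) and Meis1 (0.454), passed the limit, against 7.50% of the 3625 genes. The part of the ribosomal share in these ratios beyond that scaling was not tested.

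The same loci were open to a similar extent in both libraries. The ATAC ratio of library 2 over library 1 in HSC-like nuclei was 0.900 (0.814 to 0.995) for Mecom, 0.970 (0.850 to 1.11) for Hlf, 1.24 (1.01 to 1.52) for Prdm16, 0.940 (0.820 to 1.08) for Meis1, 1.09 (0.905 to 1.31) for Hmga2 and 1.04 (0.930 to 1.16) for Nkx2-3, with 0.995 for the median peak. Outside HSC-like nuclei, RNA of Meis1 (0.387) and Hmga2 (0.308) was as far apart between the libraries, while Mecom (0.715), Hlf (0.636) and Prdm16 (0.919) were closer. Nkx2-3 had 1.71 (0.8002 to 3.88) there, from 11 and 23 UMIs, an interval that includes 1, as in HSC-like nuclei. No label ties a library to Ctrl or Lig, and with 1 pool per group treatment and library could not be told apart even with such a label, nor can less RNA per nucleus be told apart from a different makeup of nuclei in the class.

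**Figure D5:**
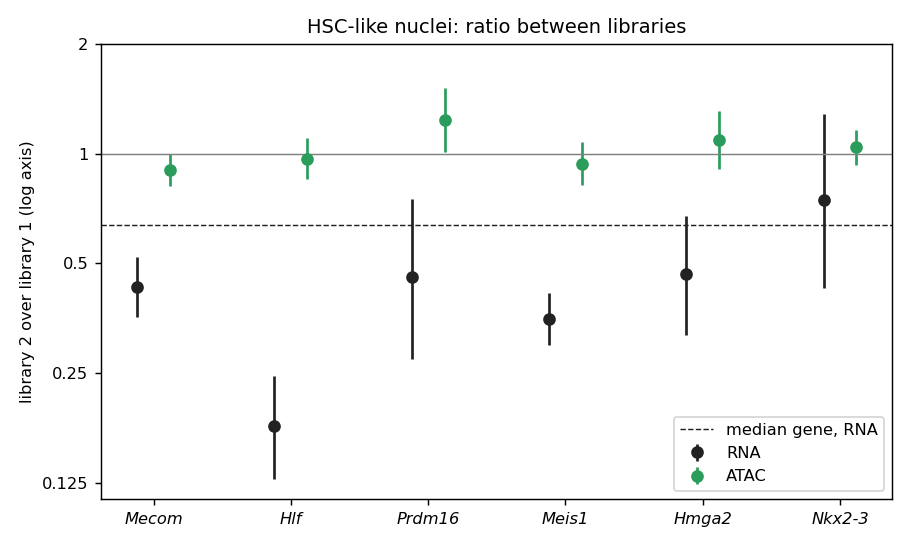
The ratio of library 2 over library 1 in HSC-like nuclei (vertical axis, log scale) for RNA (black) and locus ATAC (green) of 6 genes, with exact 95% intervals, a grey line at 1 and a dashed line at the median gene (0.639). RNA of Hlf lies lowest at 0.179, while the ATAC ratios lie between 0.900 and 1.24.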

How the data were processed

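Nuclei of HSPCs were profiled with the Chromium multiome kit, which reads RNA and ATAC from each nucleus. The submitters' processing notes name Cell Ranger ARC 2.0.0, Seurat 4.0.3, Signac 1.3.0 and GRCm38 (mm10). The deposited values are raw counts, UMIs for gene rows and transposition counts for peak rows, which the authors did not normalize in this file, over 18961 barcodes. No file pairs barcode suffixes with the labelled samples.

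Barcodes with 200 or more genes and 1000 to 50000 peak counts were kept (13619 nuclei). No mitochondrial genes are among the rows, so the share of such reads could not be used as a filter. Embeddings of RNA (2000 variable genes) and ATAC were corrected between libraries, joined and clustered at resolution 0.8 with Seurat 5.3.0, without the 7 genes and their peaks. A cluster was named when a class had at least 1 marker among its 10 leading genes, 3 markers raised 2-fold with 10 or more UMIs, and a mean log2 ratio of 1 or more over its markers. The Scrublet method in scanpy 1.11.5 called 3 nuclei (0.022%) as doublets, which means that it did not work, and no nuclei were removed. Ratios of summed CPM have exact 95% conditional intervals. Libraries held 10294527 and 12537328 UMIs and 118239764 and 128699726 ATAC counts in kept nuclei. Of the peak entries, 82.5% were even, so ATAC intervals took 2 counts as 1 observation. Gene positions came from GENCODE vM21 on the same build, which held 99.8% of the gene IDs.

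Named were all 7 genes, their start peaks and up to 3 peaks each with the largest lower ratio. These 3 were sought among peaks with 20 or more counts in HSC-like nuclei of each library. Peaks with a larger ratio but fewer counts were thus passed over. Also named were the 3 most similar genes for members with 100 UMIs in each library, and the 3 largest and 3 smallest of the related list. Members and lists were chosen with earlier results of these data known. The Mecom peak lower in both libraries, the co-detection pairs and the motifs were chosen after values were seen. Alternatives were the clustering input and resolution, stricter filters, count minimums, peak windows and other scalings. A few results that the rules would name are not reported here.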

Additional observations from a re-analysis of the deposited data

How the results depend on the processing

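No paired analysis was possible because the 2 libraries carry no group and no test was made. Clustering on RNA alone and at resolution 0.4 gave no cluster that could be named HSC-like, so these 2 settings gave no value. Samd12, which led the HSC-like class, was a leading gene of an MPP4-like cluster there. The count of genes at 2-fold or more was 6 under 6 of the 8 alternatives that gave a value, 5 with at least 500 genes per nucleus and 4 with a minimum of 100 counts. The last 2 settings measured 5 and 4 of the genes. The count of peaks, 28 as reported, fell to 14 with at least 500 genes per nucleus, which left 470 HSC-like nuclei of 933, and to 16 within 10 kb of the start interval, which left 71 peaks. The share of all peaks past the limit with at least 500 genes per nucleus was 2.67%. Under the other alternatives the count was 19 to 42, with the highest count, 42 of 209 peaks, for windows around the whole gene body, an alternative chosen after seeing the data. The peaks that this alternative and the 100 kb windows added were not left out of the clustering, so the classes may rest on them. HSC-like nuclei numbered 650 to 1322 under the other clusterings. No ratio whose interval excludes 1 changed its direction, while 12 of 84 RNA ratios, 15 of 126 locus ratios and 4 of 42 RNA ratios between libraries moved beyond their counting intervals. Most RNA moves came without correction between libraries, where Mecom had 14.2 and 9.50, Hlf 11.5, Prdm16 7.88 and 3.73, Meis1 4.83 and Nkx2-3 18.9 and 7.13, and the cause was not tested. The Hmga2 locus ratio, whose intervals include 1, fell under 1 with at least 500 genes per nucleus and ranged from 0.988 to 1.23 in library 1 and from 0.951 to 1.29 in library 2, and the Nkx2-3 locus ratios were 1.16 and 1.13 within 100 kb. The Mycn RNA ratio between libraries, from 2 and 3 UMIs, ranged from 0.485 to 2.04. Over all alternatives, the Hlf ratio between libraries stayed from 0.159 to 0.251. The low UMI count per nucleus limits Prdm16, Nkx2-3 and Mycn most.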
